A study of Mus musculus with 4 samples.

Results

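Levels of 7 genes grouped as markers of anergic or chronically stimulated T cells were followed in CD8+ T cells of the tumor-draining lymph node (TdLN). The genes are Nrn1, Izumo1r, Cd200, Nrgn, Nrp1, Phlda1 and Dapl1, followed across cells, mice and treatments. The name of the group is a label, and Dapl1 did not follow it by cell cluster, as given below. These are 7 of the 32285 genes counted. They were picked because earlier values from the same libraries showed them lower with RT + αPD-L1 or leading a cluster of chronically stimulated cells. Their RT + αPD-L1 to Control difference and their rank in that cluster are therefore descriptions and carry no test. The libraries hold single-cell RNA-seq of flow-sorted CD8+ PD-1+ CD44+ cells. The hosts were C57BL/6 mice, female and bought at 6 weeks of age, with tumors of B16F10GP, a melanoma line made to express a viral glycoprotein, on both flanks. In the RT and RT + αPD-L1 groups the right-flank tumor was irradiated. The αPD-L1 and RT + αPD-L1 groups received a PD-L1 blocking antibody, and Control mice received neither. The treated groups were collected 7 days after treatment. All 4 groups bore the tumors, and the line is 1 model. The study also sorted naive cells of untreated mice as a control, and which library holds them is not given in the sources used here. Each group was 1 library of 5 mice, told apart by hashtag antibodies, so that library and treatment cannot be told apart and the mice of a group share 1 droplet run.

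T cells that meet antigen without full costimulation can enter anergy, a state of low responsiveness driven by calcium and NFAT signaling and by EGR and NR4A transcription factors, and lasting antigen exposure leads to related programs with inhibitory receptors. Several of the genes here are best known from regulatory or anergic CD4+ T cells. CD200 is a membrane ligand of the inhibitory receptor CD200R1. Izumo1r encodes folate receptor 4, a surface protein of regulatory and anergic T cells, and Nrn1 encodes neuritin, a small lipid-anchored surface protein first described in neurons. Neuropilin-1, from Nrp1, is a coreceptor for semaphorins and VEGF. Neurogranin, from Nrgn, binds calmodulin, and Phlda1 is induced by T cell receptor signals. Dapl1 encodes a small death-associated protein-like protein found in resting and stem-like T cells.

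All 7 are protein-coding genes, placed here on mm10 by GENCODE M21 gene bounds. Cd200 is at chr16:45382135-45409053 on the minus strand, Izumo1r at chr9:14885814-14903949 (minus), Nrn1 at chr13:36725361-36735131 (minus), Nrp1 at chr8:128358604-128503363 (plus), Nrgn at chr9:37544492-37552904 (minus), Phlda1 at chr10:111506286-111508645 (plus) and Dapl1 at chr2:59484653-59505020 (plus). RefSeq start sites (GRCm38.p6) were on hand for 5 of the 7, all but Nrn1 and Phlda1. The 250 bases before each start were searched on both strands for 7 motifs. They belong to factors tied to antigen receptor or interferon signaling and to TCF/LEF factors. Only 2 matches were found, 1 for NFAT in Izumo1r and 1 for EGR in Cd200. The 30 bases around each are shown as the only matches. Capitals mark the motif, and each line reads 5′ to 3′ along the gene's minus strand (GRCm38.p6).
Izumo1r, chr9:14903947-14903976, upstream of the gene but for its last bases, the motif outside it: gaatctaagttaTTTCCAagttctcacagg
Cd200, chr16:45409072-45409101, upstream of the gene: cgagaacctgGCGGGGGCGggggcaggggc
The NFAT motif TGGAAA, found in Izumo1r as its reverse complement with its first base at −197 from the start site, occurred in 18.6% of all 32851 windows of this length. The EGR motif GCGNGGGCG, with its first base at −38 from the Cd200 start site, occurred in 4.7%. The AP-1 motif TGANTCA (6.75% of windows), the NR4A motif AAAGGTCA (1.34%), the NF-kB motif (4.11%), the interferon response motif ISRE (2.98%) and the TCF/LEF motif CTTTGAN (13.8%) were in none of the 5 windows. A match is a run of letters and not a measured binding site.

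Of 47820 barcodes, 43971 passed filters and 39192 were given to 1 mouse. Of these, 36428 cells in clusters taken as αβ T cells were compared, 134 to 4385 per mouse with 1150836 to 36001212 UMIs each. The mouse with the fewest cells, RT mouse 4, is the least precise. With HTODemux, the hashtag method of the study, 29467 cells were compared. A total of 815 barcode sequences occurred in more than 1 library. Levels are in CPM, the usual scaling of a gene's UMIs by all UMIs of a mouse's compared cells, in which fewer cells of a type and less RNA per cell cannot be told apart. Markers of the sort were present in every mouse, with Cd8a at 613.6 to 895.4 CPM, Pdcd1 at 14.2 to 68.1 CPM and Cd44 at 47.7 to 87.2 CPM per mouse. Cd4, the marker of helper and regulatory T cells, was at 1.7 CPM or less.

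All 7 genes had a lower mean in RT + αPD-L1 than in Control mice, and Nrn1, Izumo1r and Cd200 did so without overlap between the 5 mice of each group. The log2 fold changes ranged from −0.75 for Nrn1 to −0.24 for Dapl1 with a median of −0.53, against −0.01 over all genes tested. In the edgeR fit over all genes, 4 of the 7 (Nrn1, Izumo1r, Cd200 and Phlda1) were past an adjusted p of 0.05 in this contrast. Over the 11934 genes tested, 2.75% were past it and lower and 8.50% in either direction. An unadjusted p under 0.05 was found for 6 of the 7 and for 22.8% of all genes. Groups without overlap, lower, made up 2.56% of all genes. These counts describe how the genes were picked. Nrn1 was not past the threshold under another assignment of hashtags to mice, as given with its values.

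Cd200, the ligand of an inhibitory receptor, was at 65.8, 72.8, 78.8, 65.2 and 65.5 CPM in Control mice 1 to 5 and at 63.2, 37.2, 40.2, 49.6 and 53.1 CPM in RT + αPD-L1 mice 1 to 5. It was at 50.1, 57.8, 69.6, 41.7 and 59.4 CPM with RT and at 48.7, 63.5, 42.8, 54.0 and 62.9 CPM with αPD-L1. The 5 Control mice were close together and above every αPD-L1 and RT + αPD-L1 mouse, while 1 RT mouse reached into the Control range. The means fell in the order Control (69.6 ± 6.0 CPM, SD, n = 5), RT (55.7 ± 10.5), αPD-L1 (54.4 ± 9.0) and RT + αPD-L1 (48.7 ± 10.4), with neighbors among the 3 treated groups closer than their SDs. The log2 fold change to Control was −0.55 ± 0.12 (SE) with RT + αPD-L1, −0.35 ± 0.11 with αPD-L1 (edgeR adjusted p = 0.16) and −0.26 ± 0.12 with RT (0.479).

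Izumo1r, folate receptor 4, was at 126.8, 164.8, 188.9, 126.4 and 172.9 CPM in Control mice and at 111.7, 114.3, 82.9, 93.7 and 114.6 CPM in RT + αPD-L1 mice. RT mice had 122.0, 122.5, 155.4, 108.6 and 139.0 CPM and αPD-L1 mice 131.7, 115.0, 122.2, 148.6 and 132.9 CPM. The RT + αPD-L1 mice lay below every Control and every αPD-L1 mouse, the latter by a narrow gap, and RT and αPD-L1 overlapped. Mean levels were 156.0 ± 28.2 CPM in Control, 130.1 ± 12.7 with αPD-L1, 129.5 ± 18.0 with RT and 103.4 ± 14.4 with RT + αPD-L1. Against Control the log2 fold change was −0.59 ± 0.11 with RT + αPD-L1, −0.26 ± 0.11 with αPD-L1 (edgeR adjusted p = 0.285) and −0.24 ± 0.11 with RT (0.501). RT + αPD-L1 differed from RT by −0.35 ± 0.11 (0.104) and from αPD-L1 by −0.33 ± 0.11 (0.153).

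Nrn1, neuritin, had the largest estimate of the 7. Control mice had 89.1, 141.8, 115.4, 83.5 and 86.0 CPM and RT + αPD-L1 mice 75.9, 44.6, 49.6, 63.2 and 83.1 CPM. RT mice had 46.2, 68.9, 101.0, 51.3 and 76.4 CPM and αPD-L1 mice 62.3, 98.0, 59.7, 82.3 and 108.3 CPM. The highest RT + αPD-L1 mouse lay just under the lowest Control mouse, and both single-treatment groups spanned that boundary. Means were 103.2 ± 25.1 CPM in Control, 82.1 ± 21.4 with αPD-L1, 68.7 ± 21.9 with RT and 63.3 ± 16.5 with RT + αPD-L1, where each neighbor in that order differed by less than its SD. The log2 fold change to Control was −0.75 ± 0.20 with RT + αPD-L1, −0.53 ± 0.20 with RT (edgeR adjusted p = 0.371) and −0.34 ± 0.19 with αPD-L1 (0.464). With the HTODemux method of assigning hashtags to mice, the RT + αPD-L1 value was −0.67 ± 0.23 and missed the threshold (edgeR adjusted p = 0.0958). It also missed without Control mouse 2 (−0.59, 0.0876), RT + αPD-L1 mouse 2 (−0.66, 0.0731) or RT + αPD-L1 mouse 3 (−0.68, 0.0702).

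Nrp1, the semaphorin coreceptor, overlapped between all groups and had the fewest UMIs of the 7 (1659 to 2242 per group). It was at 26.1, 32.6, 44.2, 23.6 and 27.0 CPM in Control, 13.2, 23.3, 33.6, 13.0 and 20.4 with RT, 23.3, 30.9, 16.1, 29.6 and 37.0 with αPD-L1, and 33.0, 21.3, 22.6, 25.5 and 27.1 with RT + αPD-L1. The RT group held the 2 lowest mice, and its highest mouse was above 4 of the 5 Control mice. The lowest, RT mouse 4, rests on 15 UMIs of Nrp1 from 134 cells. The log2 fold change to Control was −0.43 ± 0.21 with RT (edgeR adjusted p = 0.532), −0.29 ± 0.21 with RT + αPD-L1 and −0.18 ± 0.20 with αPD-L1 (0.765).

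Nrgn, the calmodulin-binding neurogranin, departed from the others in being highest with αPD-L1. Levels were 47.0, 85.0, 59.7, 49.4 and 82.8 CPM in Control, 69.8, 85.8, 63.4, 77.6 and 71.4 with αPD-L1, 29.1, 59.0, 55.2, 71.3 and 61.5 with RT and 60.4, 29.3, 38.1, 45.6 and 63.0 with RT + αPD-L1. All RT + αPD-L1 mice were below all αPD-L1 mice, the closest pair at 63.0 and 63.4 CPM. The log2 difference of RT + αPD-L1 from αPD-L1 was −0.70 ± 0.20 and missed the threshold (edgeR adjusted p = 0.0722). It passed in 3 of the 20 fits that left out 1 mouse, without RT mouse 1, RT + αPD-L1 mouse 1 or RT + αPD-L1 mouse 5, with adjusted p over the 20 fits from 0.0291 to 0.213. The log2 fold change to Control was −0.53 ± 0.20 with RT + αPD-L1, −0.29 ± 0.20 with RT (0.689) and 0.17 ± 0.19 with αPD-L1 (0.765).

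Phlda1, induced by antigen receptor signals, was at 50.4, 55.2, 58.6, 46.9 and 49.8 CPM in Control and at 44.0, 37.3, 36.0, 42.2 and 42.7 CPM with αPD-L1. RT mice had 52.4, 44.8, 44.8, 40.0 and 42.9 CPM and RT + αPD-L1 mice 47.9, 33.9, 27.4, 47.0 and 36.8 CPM. Every αPD-L1 mouse was below every Control mouse, while 2 RT + αPD-L1 mice reached the Control range. Relative to Control, Phlda1 differed on the log2 scale by −0.48 ± 0.11 with RT + αPD-L1, −0.38 ± 0.10 with αPD-L1 (edgeR adjusted p = 0.107; DESeq2 adjusted p = 0.0435) and −0.20 ± 0.11 with RT (0.568). Without RT + αPD-L1 mouse 3, the lowest mouse, the RT + αPD-L1 value was −0.36, and the αPD-L1 value passed in edgeR (lowest adjusted p of the 20 fits 0.0216).

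Dapl1 had the most UMIs of the 7 (28989 to 41058 per group) and the smallest difference. It was at 507.8, 596.3, 581.4, 617.2 and 534.2 CPM in Control, 611.8, 564.5, 508.9, 696.9 and 553.3 with RT, 559.5, 471.9, 520.2, 495.2 and 568.8 with αPD-L1, and 551.0, 434.7, 328.8, 579.6 and 498.7 with RT + αPD-L1. RT + αPD-L1 mouse 3 was the lowest of all 20 mice and the 4 groups overlapped. Relative to Control, Dapl1 differed on the log2 scale by −0.24 ± 0.11 with RT + αPD-L1 (−0.14 without mouse 3), −0.11 ± 0.11 with αPD-L1 (edgeR adjusted p = 0.706) and 0.04 ± 0.11 with RT (0.971).

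**Figure D1:**
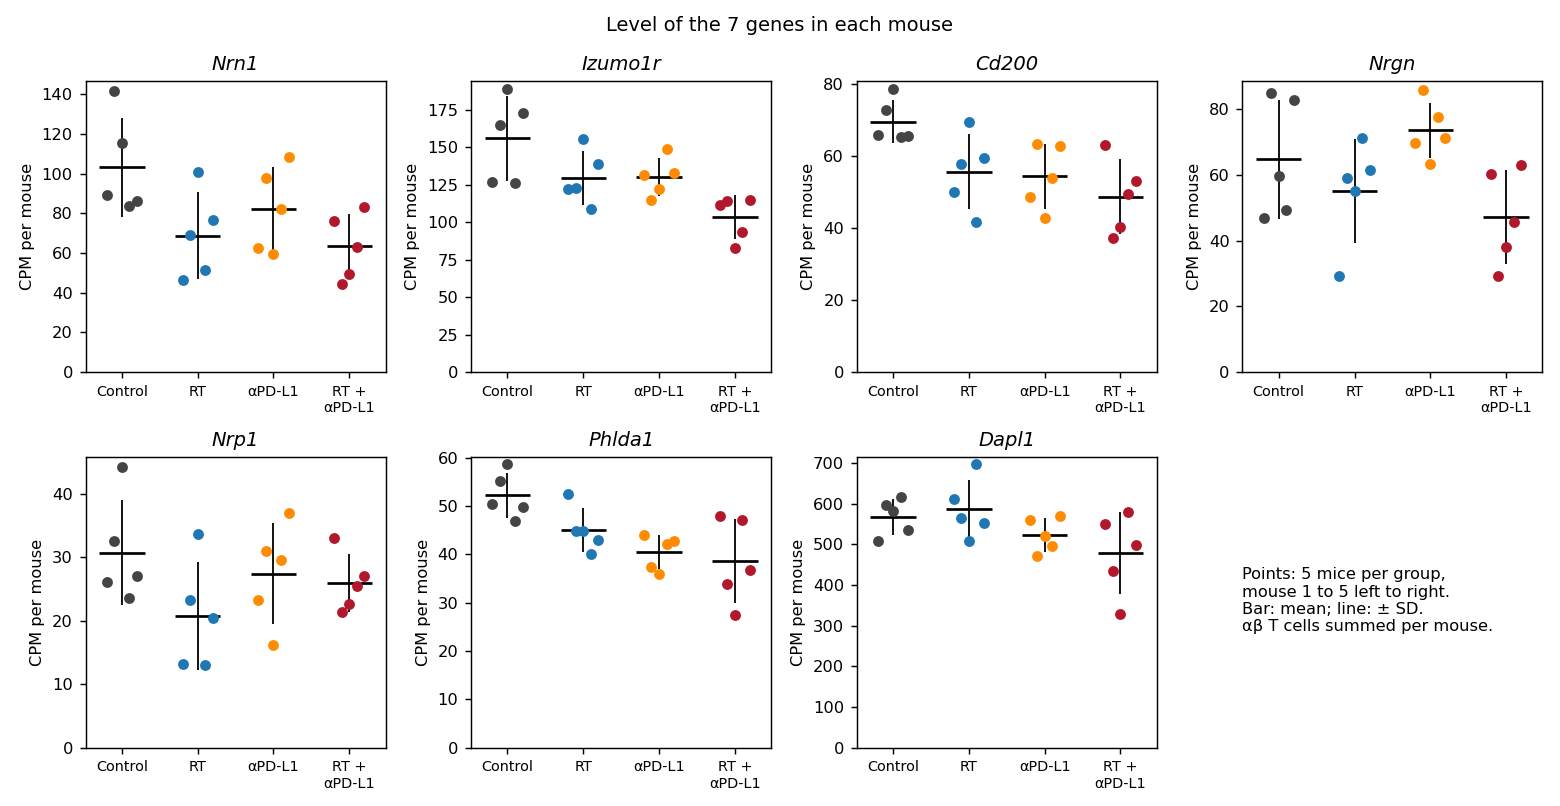
CPM of each gene (vertical axis, from 0) in each of the 5 mice of the 4 groups, with the mean (bar) and SD (line) per group. Nrn1, Izumo1r and Cd200 show every RT + αPD-L1 mouse below every Control mouse, whereas Nrgn is highest with αPD-L1 and Dapl1 overlaps throughout.

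Each treatment given alone was set against Control with the same Control mice that entered the choice of genes. With RT, 0 of the 7 passed the edgeR threshold (0.109% of all genes did, 0.0335% higher and 0.0754% lower), 3 had an unadjusted p under 0.05 (9.43% of all genes), DESeq2 called 0, and 6 of 7 estimates were below 0 with a median of −0.26. With αPD-L1, 0 of the 7 passed (0.394% of all genes did), 3 had an unadjusted p under 0.05 (13.9%), DESeq2 called 1 (Phlda1), and 6 of 7 were below 0 with a median of −0.26. Cd200 and Phlda1 did not overlap between αPD-L1 and Control (2.05% of all genes did so, lower), and no gene was without overlap between RT and Control (1.78%). Adding a second treatment compared RT + αPD-L1, whose mice also entered the choice, with each treatment alone. Against RT 0 of 7 passed (3.08% of genes did, 0.503% lower), with 4 at an unadjusted p under 0.05 (15.4%), DESeq2 0, and a median of −0.27. Against αPD-L1 0 of 7 passed (2.30%), with 2 at an unadjusted p under 0.05 (12.5%), DESeq2 0, and a median of −0.20. Izumo1r and Nrgn did not overlap in the latter (0.704% of genes, lower).

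RT against αPD-L1 was the only comparison whose mice played no part in the RT + αPD-L1 to Control difference that chose the genes. None of the 7 genes passed (edgeR, 0 of 7, every adjusted p at 1.0, DESeq2 0), where 1 of the 11934 genes tested, or 0.00838%, did. Nrgn alone had an unadjusted p under 0.05 (0.0315; 4.67% of all genes had one), at −0.46 ± 0.20 and lower with RT. The 95% interval of the log2 difference was −0.89 to −0.04 for Nrgn. It was −0.16 to 0.34 for Cd200, −0.22 to 0.26 for Izumo1r, −0.61 to 0.23 for Nrn1, −0.69 to 0.20 for Nrp1, −0.05 to 0.41 for Phlda1 and −0.07 to 0.39 for Dapl1. Differences of about 0.2 to 0.4 in size thus lie within these intervals, and larger ones for Nrgn (to −0.89), Nrp1 (to −0.69) and Nrn1 (to −0.61). The test does not show that the groups are alike.

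**Figure D2:**
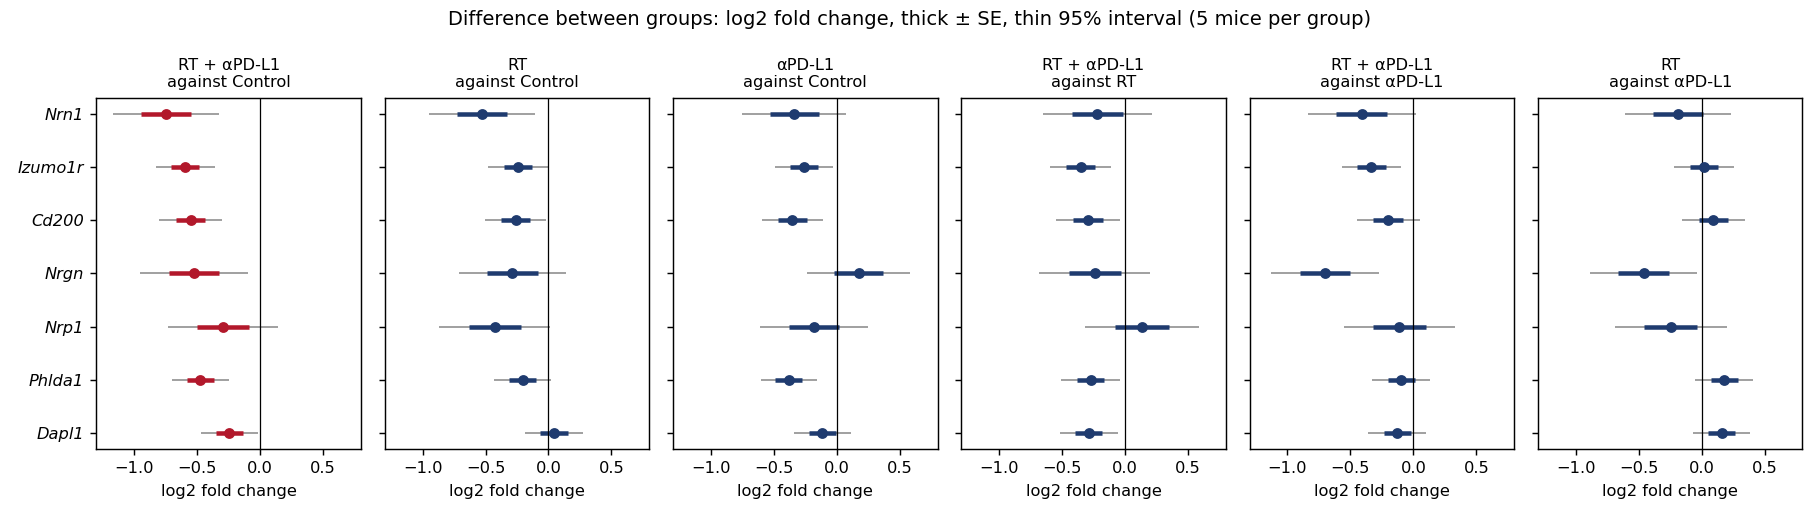
Log2 fold change (horizontal axis) of each gene in the 6 group comparisons, 5 mice per group, with thick lines for ± SE and thin lines for the 95% interval. Estimates lie left of 0 for all 7 genes in RT + αPD-L1 against Control, the comparison used to choose them, and on both sides of 0 in RT against αPD-L1, where 0 of 7 passed.

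The cells were clustered with the 7 genes left out, and clusters were named from marker genes that do not include them. Among 9 clusters of αβ T cells, 6 of the 7 genes were highest in the chronic-stimulation-like cluster, 2012 cells led by Tnfrsf4, C2cd4b, Gpm6b, Igfbp7, Tiam1 and Egr2. Dapl1 was the exception. Its peak was an unnamed cluster of 6626 cells led by Capn3, H2-Oa and Mxd4. Since the genes were picked in part for leading such cells, these levels carry no test.

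Over the 19 mice with at least 20 chronic-stimulation-like cells, Nrn1 was at 473 ± 114 CPM (SD), against 91.8 ± 38.8 in the next cluster, the effector-like cells, and 5.8 ± 3.3 in naive-like cells. Nrgn was at 382 ± 141 CPM there, with G2/M-like dividing cells next at 94.4 ± 38.9. Cd200 was at 262 ± 53.4 CPM, followed by 81.2 ± 11.5 in an unnamed cluster led by Srm, Xcl1 and Tnfrsf9. For these 3 genes the mean less 1 SD in the chronic-stimulation-like cells was above the mean plus 1 SD of the next cluster. Izumo1r was closer between clusters, at 332 ± 74.0 CPM there and 252.9 ± 42.2 in the Capn3-led cluster, which lie about 1 SD apart over mice. Phlda1 was at 80.2 ± 21.9 CPM against 58.7 ± 12.6 in effector-like cells and 15.9 ± 4.1 in naive-like cells. Nrp1 was at 139.5 ± 22.6 CPM there and at 125.5 ± 46.7 in an unnamed cluster of 2473 cells with a median of 1707 UMIs led by nuclear transcripts such as Gm26917 and Kcnq1ot1, and the order of these 2 is within the spread. Dapl1 was at 841 ± 125.6 CPM in the Capn3-led cells, 480.8 ± 59.9 in naive-like and 340.4 ± 85.3 in chronic-stimulation-like cells.

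With the finer clustering, 2 clusters took the chronic-stimulation name, and only the Tnfrsf4- and Egr2-led one (1980 cells) held the high levels. In it Nrn1 was at 471 ± 121 CPM and Cd200 at 265.9 ± 48.1 CPM. In the other, led by Il10ra, Gzmk and Ctla2a (1623 cells, 17 mice), Nrn1 was at 84.0 ± 56.6 CPM and Cd200 at 63.1 ± 31.4 CPM.

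**Figure D3:**
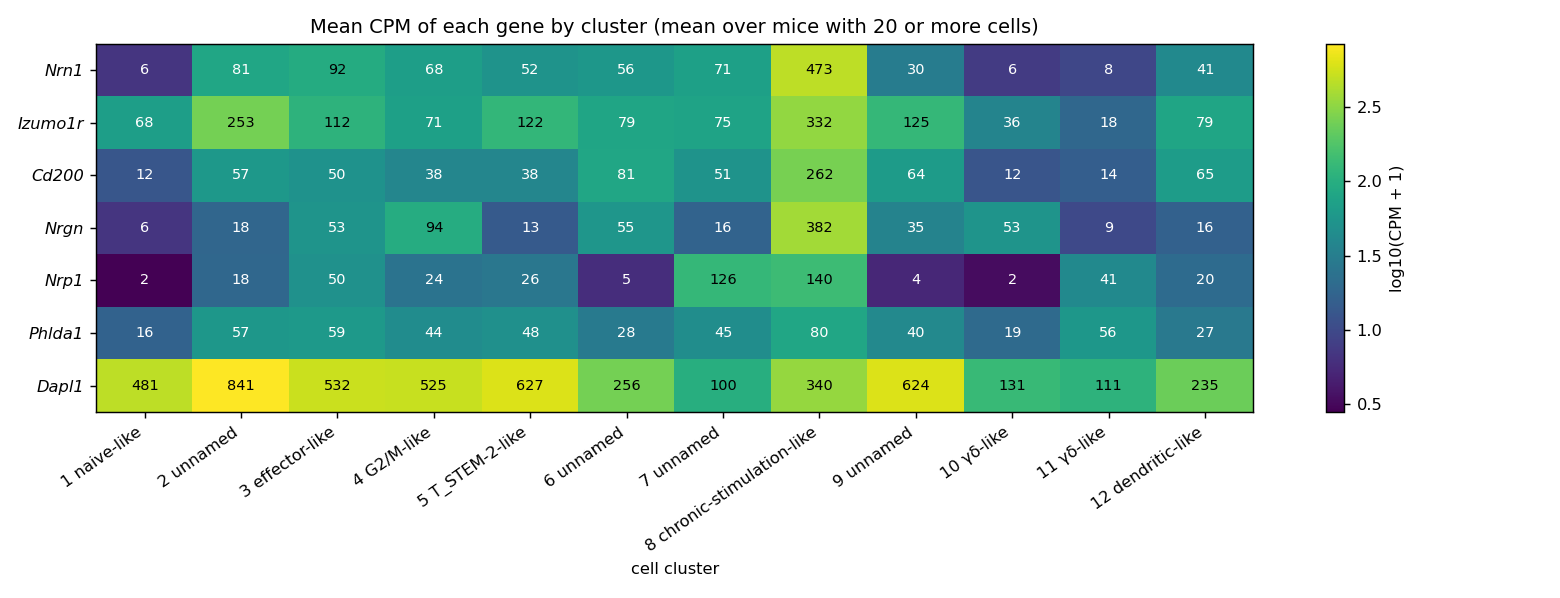
Mean CPM of each gene (rows) in 12 cell clusters (columns), averaged over mice with 20 or more cells, with color on a log10(CPM + 1) scale and the mean printed in each cell. The chronic-stimulation-like column is the brightest for 6 of the 7 genes, and Dapl1 peaks in cluster 2 and is lower in column 8.

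Shares of cells with at least 1 UMI were taken after thinning every cell to 3000 UMIs. Of 1914 chronic-stimulation-like cells (median 6429 UMIs before thinning), 51.1% had Nrn1, with an exact binomial 95% interval of 48.8 to 53.4 that covers counting error only. The shares were 48.5% for Cd200, 47.6% for Izumo1r, 32.3% for Nrp1, 26.0% for Nrgn, 19.1% for Phlda1 and 44.4% for Dapl1. Without thinning, 61.0% had Nrn1 and 67.4% Cd200. Naive-like cells (6845, median 5025 UMIs) had lower shares for 6 of the 7 genes, at 1.80% for Nrn1, 1.26% for Nrgn, 0.409% for Nrp1, 2.95% for Cd200, 4.28% for Phlda1 and 13.8% for Izumo1r. Dapl1, in contrast, was detected in 53.0% of naive-like cells and in 69.7% of Capn3-led cells. No background from free RNA was set. The B cell-like cells were few (47, median 3917 UMIs), with Nrn1, Nrgn and Nrp1 each seen in 1 of them (2.13%). Phlda1 was seen in 4.255% of them, Izumo1r in 10.64% and Dapl1 in 17.02%, and B cells express Cd200 themselves (14.9%). In 389 dendritic cell-like cells Izumo1r was seen in 12.85% and Dapl1 in 25.71%. The Izumo1r share of naive-like cells is thus close to that of these other cell types. The part of free RNA in these shares was not tested.

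Some single cells held more than 1 of the genes, and Dapl1 alone was in 52.4% of the cells. No share expected from independent detection was set beside the counts that follow. Of 32908 αβ T cells thinned to 3000 UMIs, 25.2% had none of the 7, 40.6% had 1, 22.1% had 2, 8.29% had 3 and 6 cells had all 7. Cells with Nrgn held Nrn1 in 37.8% of cases, against 10.8% of cells without Nrgn, and cells with Nrp1 held Nrn1 in 35.7% against 10.6%. Dapl1 was as frequent in cells with Nrn1 (53.5%) as in those without (52.2%). Over the 9 αβ clusters the log levels of Nrn1 and Cd200 had a Pearson r of 0.91 and those of Nrn1 and Phlda1 0.91, while Dapl1 had r from −0.49 (Nrp1) to 0.39 (Izumo1r). These are descriptions over 9 points that share the same libraries.

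Per mouse, the share of αβ T cells with a UMI, was also taken after thinning. Nrn1 was detected in 14.8 ± 3.4% of cells in Control, 11.8 ± 2.8% with RT, 12.7 ± 3.1% with αPD-L1 and 10.2 ± 2.4% with RT + αPD-L1 mice (SD, n = 5). Izumo1r went from 29.5 ± 4.5% in Control to 21.2 ± 2.8% with RT + αPD-L1, Cd200 from 16.0 ± 1.9% to 11.7 ± 2.6%, and Nrgn from 6.31 ± 1.63% to 4.02 ± 1.05%. The order of the 4 group means matched that of the levels for Nrn1 and Cd200. It differed for the other 5 genes, for Izumo1r, Nrp1, Phlda1 and Dapl1 only by a swap of neighboring groups. No order is read from the shares of these 5 genes. Nrgn, for instance, was detected in 6.51 ± 2.37% of cells with RT and 6.36 ± 1.41% with αPD-L1, where its level was highest.

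Inside the chronic-stimulation-like cluster, the levels of Nrn1, Cd200, Nrgn and Nrp1 had no lower mean with RT + αPD-L1 than in Control beyond the spread. Nrn1 was at 468.6 ± 152.1 CPM in Control, 430.6 ± 83.3 with RT (4 mice), 490.6 ± 72.3 with αPD-L1 and 493.6 ± 150.4 with RT + αPD-L1. Cd200 was at 272.0 ± 39.9, 265.1 ± 58.8, 235.0 ± 64.1 and 277.8 ± 56.3 CPM in the same order, and Nrp1 at 147.9 ± 8.6, 116.7 ± 23.4, 144.1 ± 27.2 and 144.9 ± 20.4 CPM. Nrgn was at 290 ± 165.9 CPM in Control and 454.1 ± 105.6 with RT + αPD-L1. All 4 genes overlapped between groups within these cells, and no test was run. Izumo1r (315.7 ± 89.1 against 277.6 ± 36.0 CPM), Phlda1 (83.6 ± 18.7 against 71.3 ± 26.8) and Dapl1 (380.1 ± 107.0 against 294.9 ± 109.5) had lower means with RT + αPD-L1, by less than the Control SD.

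Effector-like cells had lower Nrn1 with RT + αPD-L1, given as values without a test. Nrn1 was at 128.2 ± 23.4 CPM in Control (103.1 to 166.2), 85.9 ± 49.4 with RT, 95.7 ± 28.6 with αPD-L1 and 57.2 ± 11.1 with RT + αPD-L1 (47.2 to 75.9). Izumo1r in these cells was at 127.7 ± 16.7 CPM in Control and 87.6 ± 6.0 with RT + αPD-L1, and in G2/M-like cells at 86.3 ± 6.8 and 51.5 ± 16.3 CPM. A main cluster may mix cell states that the finer clustering splits. The G2/M-like cluster held 1007 RT + αPD-L1 cells, against 501 in the finer S phase-like and 247 in the finer G2/M-like cluster. A lower mean in a cluster is thus not shown to be lower expression in 1 cell type. In the Capn3-led cells Nrn1 was level, at 84.6 ± 20.6 and 82.3 ± 19.9 CPM, and Dapl1 was at 846.3 ± 88.2 and 725.0 ± 119.8 CPM.

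**Figure D4:**
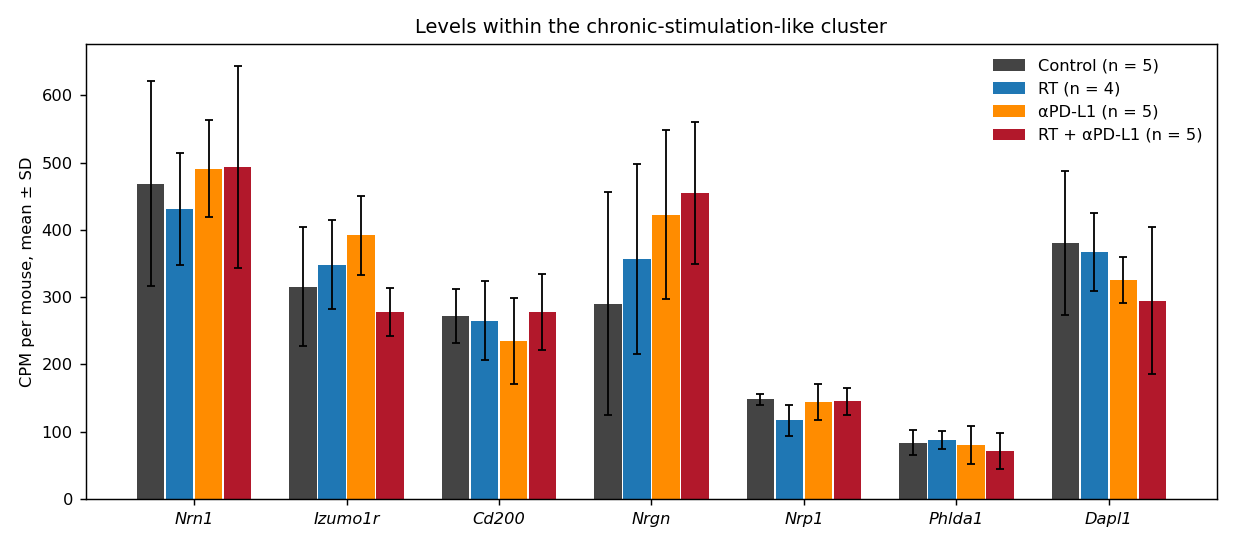
CPM (vertical axis, from 0) of each gene inside the chronic-stimulation-like cluster by group, as the mean over mice with at least 20 such cells and the SD. The bars of Nrn1, Cd200 and Nrp1 are of like height in Control and RT + αPD-L1, Nrgn is higher and Izumo1r, Phlda1 and Dapl1 are lower with RT + αPD-L1, all within overlapping SDs.

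Each mouse's cluster levels were also averaged with 1 fixed set of cluster weights, given as values with no test. With the mix fixed, the log2 ratio of mean CPM, RT + αPD-L1 to Control, went from −0.52 to −0.18 for Cd200 and from −0.45 to −0.07 for Nrgn. It went from −0.71 to −0.38 for Nrn1 and from −0.25 to −0.14 for Nrp1. For Phlda1 (−0.43 to −0.41) and Dapl1 (−0.25 to −0.26) it moved little, and for Izumo1r it went from −0.59 to −0.42. With the finer clustering the fixed-mix ratio was −0.18 for Cd200, −0.02 for Nrgn, −0.33 for Nrn1, −0.09 for Nrp1, −0.38 for Phlda1, −0.20 for Dapl1 and −0.41 for Izumo1r. Over mice, fixed-mix Cd200 was at 62.6 ± 2.6 CPM in Control and 55.2 ± 3.2 with RT + αPD-L1, and Nrgn at 59.2 ± 15.6 and 56.5 ± 10.1 CPM. The median over the 7 genes was −0.45 before and −0.26 after. The weights follow clusters rebuilt here, and Tiam1, 1 of the 10 leading genes of the chronic-stimulation-like cluster, was itself past the threshold in this contrast, so cluster sizes are not compared.

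**Figure D5:**
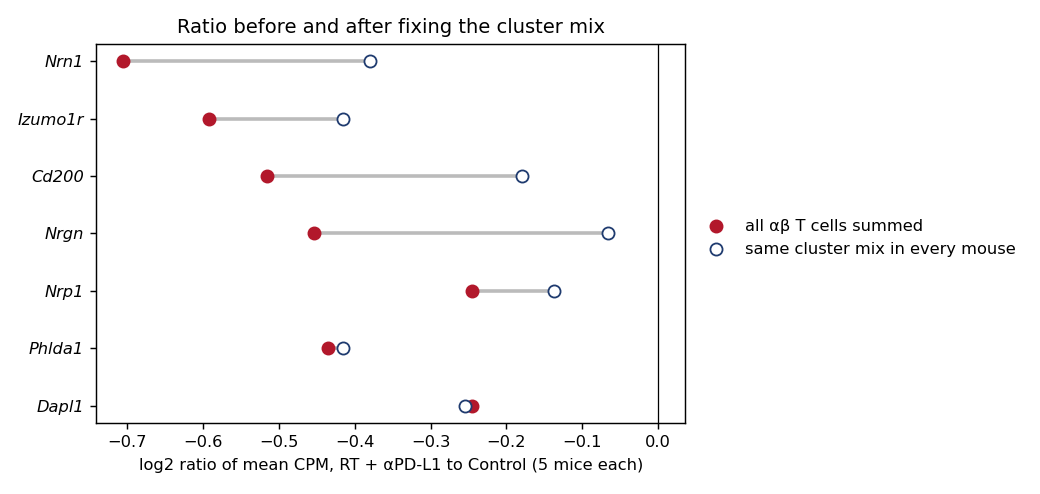
Log2 ratio of mean CPM, RT + αPD-L1 to Control, for each gene before (filled) and after (open) giving every mouse the same cluster mix. The open points lie at −0.18 for Cd200 and −0.07 for Nrgn, nearer to 0 than the filled ones, and at −0.41 for Phlda1 and −0.26 for Dapl1, close to the filled ones.

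Interferon-stimulated genes lead the T_STEM-2-like cluster. The summed level of 15 interferon-stimulated genes was 758 to 4554 CPM per RT + αPD-L1 mouse and 521 to 1141 CPM per Control mouse, and all 15 rose (edgeR), while their part in the values of the 7 genes was not tested. Without the T_STEM-2-like cells the log2 fold change of RT + αPD-L1 to Control was −0.67 for Nrn1, −0.61 for Izumo1r, −0.44 for Cd200, −0.48 for Phlda1, −0.32 for Nrgn, −0.29 for Nrp1 and −0.32 for Dapl1. The Nrgn value thus came nearer to 0 by more than its SE, and the other 6 moved by less. The cells left out were the 1 cluster of that name in the main clustering (3546 cells), led by Ifit3b, Ifit3 and Rsad2. With the finer clustering a second cluster took the name (683 cells, 520 from RT + αPD-L1), led by Gzma, Gzmb and Ifitm1. It had Izumo1r at 14.8 ± 7.1 CPM, Cd200 at 5.9 ± 2.1 and Dapl1 at 56.1 ± 37.9 over 4 mice. That second cluster was not left out as a group.

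Other genes of anergy and tolerance were followed in a list of 20, of which 19 were tested. This list and those below were chosen with earlier results of these data known. Their calls in RT + αPD-L1 against Control are therefore descriptions. In RT + αPD-L1 against Control 4 fell and 1 rose, where 2.75% of all genes were called lower and 5.75% higher, with a median log2 fold change of −0.13 against −0.01 for all genes. Egr3, a transcription factor of anergy, fell by 0.57 ± 0.18 on the log2 scale (edgeR adjusted p = 0.0495) and Ndrg1, a factor linked to clonal anergy, by 0.44 ± 0.10 (0.00934). Nr4a2, an orphan nuclear receptor induced by antigen, fell by 0.28 ± 0.07 (0.0159) and Dgkz, a kinase that removes diacylglycerol, by 0.20 ± 0.06 (0.0324). Ptpn22, a phosphatase that restrains receptor signaling, rose by 0.26 ± 0.06 (0.00881). Ndrg1 also fell against αPD-L1, by 0.38 ± 0.10 (0.0458), the 1 call of the list in the other 5 comparisons, which 16 of the 20 fits without 1 mouse (largest adjusted p 0.173) did not make, nor any of the 7 other settings run, among them DESeq2 (adjusted p 0.0612 to 0.365). Against Control, Egr3 kept its call in 5 of the 20 fits without 1 mouse and lost it by DESeq2 (0.0626) and with HTODemux (0.159). Without the T_STEM-2-like cells Egr3 (0.099), Ndrg1 (0.0769) and Dgkz (0.0574) were not called. Dgkz also missed without Control mouse 1, 2 or 3 or RT + αPD-L1 mouse 2, 3 or 4 (largest adjusted p 0.105), and Nr4a2 without RT + αPD-L1 mouse 3 (0.0578).

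Of 20 genes of chronic stimulation, all tested, 2 fell (2.75% of all genes were called lower) and 1 rose, with a median of −0.05. The 1 gene of 20 that rose is near the 5.75% of all genes called higher. Rgs16, which dampens G protein signaling, fell by 0.64 ± 0.13 (edgeR adjusted p = 0.00396), and it also fell against RT by 0.66 ± 0.13 (0.00672) and against αPD-L1 by 0.75 ± 0.13 (0.00174). Tox, a regulator of exhausted cells, fell by 0.25 ± 0.07 (0.0315), and missed the threshold with HTODemux (0.0575) and without Control mouse 2, 3 or 5 or RT + αPD-L1 mouse 2 or 3 (largest adjusted p 0.0917). Prdm1, which encodes the effector regulator BLIMP-1, rose by 1.43 ± 0.35 (0.0149), and without RT + αPD-L1 mouse 3 was at 0.89 and missed the threshold (0.153). Of 19 antigen receptor response genes tested, 3 fell (2.75% of all genes were called lower) and 0 rose, with a median of −0.08. DESeq2 called 2 of the list. The 3 by edgeR were Spry1, a feedback inhibitor of receptor signaling (−0.57 ± 0.13, edgeR adjusted p = 0.00852), and Egr3 and Nr4a2, which the anergy list also holds.

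Binding partners and relatives of the 7 proteins made a list of 30, of which 19 had enough counts. Ppp3ca, the catalytic subunit of calcineurin, rose by 0.29 ± 0.07 (edgeR adjusted p = 0.0166), and Gipc1, an adaptor that binds neuropilin-1, fell by 0.30 ± 0.07 (0.00772), with a median of −0.02 over the list. These 2 calls of 19 are near the 8.50% of all genes. Ppp3ca missed the threshold without RT + αPD-L1 mouse 2 or mouse 3 (largest adjusted p 0.0641), with HTODemux (0.12), without the T_STEM-2-like cells (0.0812) and with at most 20000 UMIs per cell (0.0505). Between RT and αPD-L1, 0 genes of the anergy, chronic stimulation, antigen receptor and partner lists passed, 0 had an unadjusted p under 0.05 and DESeq2 called 0. RT against Control and αPD-L1 against Control also had 0 calls in each of the 4 lists by edgeR, with 0 to 3 and 2 to 5 genes per list at an unadjusted p under 0.05, and DESeq2 called 0 and 1 in all.

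The genes whose log level over the 9 αβ clusters was most like each of the 7, among 6100 considered, are given as a description. Nrn1 was most like Wnt10a (Pearson r = 0.96), Decr1 (0.95) and Ndfip1 (0.95), and Cd200 most like Gadd45b (0.93), Ndfip1 (0.91) and Spry1 (0.91). Nrgn was most like Gemin8 (0.93) and Ndfip1 (0.90). Izumo1r was most like Rtl8c (0.95), Cfap36 (0.92) and Nfkbia (0.89). Nrp1 was most like Cyfip1 (0.99), Icos (0.99) and Calhm2 (0.98), Phlda1 most like Ptms (0.93), Gm11110 (0.93) and Crlf2 (0.92), and Dapl1 most like Ighm (0.96), Churc1 (0.95) and Mpst (0.95). With a pseudocount of 1 CPM in place of 10, Ndfip1 was not among the 3 most like Nrn1 or Cd200, nor Calhm2 for Nrp1 or Crlf2 for Phlda1.

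Izumo1r, Nrp1, Nrn1 and Cd200 are also known from regulatory T cells, so markers of those cells are given beside them. All 6 genes of the regulatory T cell list had counts in every group, with a summed level of 386 to 467 CPM in Control and 283.5 to 439.3 CPM in RT + αPD-L1 mice. Its defining gene Foxp3 was at 1.6 to 5.5 CPM in Control and 2.1 to 5.3 CPM in RT + αPD-L1 mice. Summed B cell markers were at 197.9 to 213.3 and 172.5 to 228.4 CPM, with Cd79a at 1.1 CPM or less in both, and summed dendritic cell markers at 86.3 to 113.1 and 99.7 to 110.9 CPM. The part of such cells in the levels of the 7 genes was not tested.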

How the data were processed

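Single-cell RNA-seq of sorted TdLN T cells was used as the UMI counts per gene and cell that the authors deposited, 1 matrix for each of 4 libraries, made with Cell Ranger (6.1.2 in the matrix header) on mm10. Counts of 5 hashtags per library gave the mouse of each cell, by a threshold per hashtag at the low point between its low and high counts. The study used HTODemux, which was run here as an alternative and assigned fewer cells. The compared cells then went from 2021 to 684 in Control mouse 1, from 799 to 113 in RT mouse 1 and from 4385 to 2562 in RT + αPD-L1 mouse 3. Levels of these mice thus depend most on the main assignment. Cells with 500 to 5000 genes, at most 40000 UMIs and under 10% mitochondrial counts and with 1 hashtag were kept, and cells with several hashtags (7.473 to 8.849% of barcodes per library) were removed as doublets. Clusters were made from 2000 variable genes without the 7 members (20 components, 15 neighbors, Leiden resolution 0.6 or 1.0, scanpy 1.11.5). The 2764 cells of clusters named gamma delta T cell-like, dendritic cell-like or B cell-like were left out. Of these, 1686 were in a gamma delta-like cluster led by Klra7 and Trgv2, which may also hold αβ T cells. With the finer clustering, an unnamed cluster of 1388 cells led by Klra7, Klra6 and Klra3 entered the fixed-mix values. Counts were summed per mouse and tested with edgeR 4.0.16 (quasi-likelihood F test, TMM, filterByExpr, 1 fit over 20 mice, two-sided), with Benjamini-Hochberg adjustment over 11934 genes and a threshold of 0.05. DESeq2 1.42.0 was an alternative. Intervals use 16 degrees of freedom. The test was checked on simulated data, where 92 of 100 genes changed by 0.5 (log2) were recovered for RT against αPD-L1 and 9 unchanged genes were called. Many genes were changed together there, which eases the adjusted threshold, whereas 1 gene passed in the real comparison. The share recovered therefore does not carry over to members with an SE near 0.20, such as Nrgn. Mice within a group are the replicates, and p-values do not cover differences between droplet runs. For the fixed cluster mix, the weights were each αβ cluster's share of UMIs over all mice, and a mouse with under 20 cells of a cluster took its group's summed value. Likeness used log2(CPM + 10). Named genes were all 7 members, list genes called in RT + αPD-L1 against Control (at most 4 in each direction), and the 3 genes most like each member, of which 1 is not reported here. The 7 genes, the lists and the tests were chosen with earlier results of these data known.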

Additional observations from a re-analysis of the deposited data

How the results depend on the processing

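Of 74 repeats of the summary results under other settings, most of them counts of genes called, 69 stayed near the main value. A weaker value was found in 4 and a stronger one in 1. A count can stay near while single genes cross the threshold. Nrn1 and Egr3, for instance, lost their RT + αPD-L1 to Control call with HTODemux. DESeq2 called 1 of the 7 genes in αPD-L1 against Control (0 by edgeR). Without T_STEM-2-like cells 2 anergy genes (5 in the main analysis) and 1 partner gene (2) were called, and 1 partner gene with HTODemux assignment or at most 20000 UMIs per cell. With HTODemux Nrp1 in RT + αPD-L1 against RT turned to −0.03 and Dapl1 in RT against Control to −0.01. Leaving out 1 mouse gave 0 to 1 of the 7 genes in αPD-L1 against Control and in RT + αPD-L1 against αPD-L1, a median of −0.61 to −0.45 in RT + αPD-L1 against Control, and 2 to 7 anergy, 1 to 4 chronic stimulation, 1 to 4 antigen receptor and 1 to 3 partner genes. RT + αPD-L1 mouse 3 gave the lowest list counts. Izumo1r in RT against αPD-L1 ran from −0.05 to 0.08, Phlda1 in RT + αPD-L1 against αPD-L1 from −0.19 to 0.03 and Dapl1 in RT against Control from −0.01 to 0.10. The causes were not tested. Over all genes, RT + αPD-L1 against Control had 1014 calls, 517 with HTODemux and 471 without T_STEM-2-like cells; αPD-L1 against Control had 47, 118 by DESeq2, 81 with all cells, 23 with HTODemux and 30 with no filter. RT against Control had 13, 28 by DESeq2 and 8 without T_STEM-2-like cells. RT + αPD-L1 against RT had 367, 221 with HTODemux and 146 without T_STEM-2-like cells, and RT + αPD-L1 against αPD-L1 had 274 and 110. RT against αPD-L1 had 1, 3 by DESeq2 and 2 with all cells. Without 1 mouse, calls over all genes ran from 499 (without RT + αPD-L1 mouse 3) to 1218 in RT + αPD-L1 against Control, where the fit lacking RT + αPD-L1 mouse 2 gave 556 and those lacking Control mouse 2 or 1 gave 565 and 594. They ran from 15 (without Control mouse 2) to 100 (without RT + αPD-L1 mouse 3) in αPD-L1 against Control, 7 to 27 in RT against Control, 165 to 535 in RT + αPD-L1 against RT, 172 to 400 in RT + αPD-L1 against αPD-L1 and 0 to 1 in RT against αPD-L1. No paired analysis was possible because each mouse belongs to 1 library and hashtag numbers do not pair mice across libraries.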
